A study of Mus musculus with 12 samples.

Results

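Zbtb16, Cwh43, Wfdc6a, AU015791 and Arrdc2 are 5 genes that stood out for higher transcript levels after dexamethasone in cultured mouse kidney tubules and that lie outside the transporter and conjugation families. They are 5 of the 20819 genes in the deposited table and were matched by gene symbol. They were chosen by their values with myoglobin + dexamethasone against myoglobin in these same libraries, so that response is described here and carries no test. All 5 passed the filter on low values (4 or more of the 12 libraries at 10 or above), as 14558 genes did. Zbtb16 and Wfdc6a passed it only through the 4 dexamethasone libraries.

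Dexamethasone is a synthetic glucocorticoid. It binds the glucocorticoid receptor, a nuclear receptor that enters the nucleus, binds DNA at glucocorticoid response elements and raises or lowers transcription of nearby genes. In kidney tubules the receptor and the related mineralocorticoid receptor are known for control of sodium transport, and Sgk1 and the sodium channel subunit gene Scnn1a are textbook targets. Myoglobin is the haem protein of muscle and reaches the tubule when muscle breaks down.

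The 5 products have unlike roles. Zbtb16 encodes PLZF, a zinc finger transcription factor with a BTB domain that recruits corepressors. Cwh43 is named after the yeast gene whose product replaces the lipid of glycosylphosphatidylinositol (GPI) anchors, which hold proteins on the cell surface. Wfdc6a encodes a small protein with a whey acidic protein domain, the fold of secreted protease inhibitors. Arrdc2 encodes an alpha-arrestin, one of the adaptors that bring NEDD4-type ubiquitin ligases to membrane proteins. AU015791 is annotated as a long intergenic non-coding RNA, and no role is given for it here.

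The libraries are of tubuloids, 3-dimensional cultures grown in Matrigel from the dissociated renal cortex of wildtype mice. Treatment lasted 12 h and consisted of myoglobin with 100 nM dexamethasone (4 libraries), myoglobin alone (4 libraries) or vehicle (4 libraries). No library had dexamethasone alone, so every dexamethasone value was measured in the presence of myoglobin. The labels number the libraries of a treatment but do not say that a number is a mouse, and p-values therefore measure the spread between these samples only. The cultures are bulk samples, in which fewer cells of a type and less RNA per cell cannot be told apart.

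The deposited values are read counts scaled by library and rounded to whole numbers, called normalised read counts here. Summed over genes they come to 5.34 to 5.73 M per library with myoglobin + dexamethasone, while the myoglobin libraries have 5.32 to 5.35 M and the vehicle libraries 5.25 to 5.30 M. The reads before scaling, estimated from the spacing of the values, were 3.25 M in replicate 4 of myoglobin + dexamethasone and 4.85 to 5.92 M in the other 11 libraries. That replicate has 2179 genes listed at 0, against 1051 to 1544 in the other 11. The 8 tubular epithelial markers (Epcam, Cdh1, Cdh16, Pax8, Pax2, Krt8, Krt18 and Krt19) summed to 9443 to 13014 with myoglobin + dexamethasone, 8800 to 9430 with myoglobin and 9600 to 9774 with vehicle. Of the proximal tubule markers Lrp2 was well above 0 (means 332, 387 and 233 in the same order), while Cubn and Slc34a1 averaged at most 2.75 in every group.

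Promoters are shown because the genes were chosen for moving together with dexamethasone. RefSeq promoters, which run from 250 bases before to 50 bases after a start site, were found for 3 of the 5 genes in the table for GRCm38.p6, the assembly also called mm10. All are written on the strand of the gene. Capitals mark matches, on either strand, to AGAACA (an arm of the glucocorticoid response element), CCAAT (the CCAAT box) or GGGCGG (the GC box), and a match on the other strand appears as its reverse complement. Cwh43 is shown at chr5:73405828-73406127 on the plus strand, Wfdc6a at chr2:164585398-164585697 and Arrdc2 at chr8:70839671-70839970, the last 2 on the minus strand.
Cwh43: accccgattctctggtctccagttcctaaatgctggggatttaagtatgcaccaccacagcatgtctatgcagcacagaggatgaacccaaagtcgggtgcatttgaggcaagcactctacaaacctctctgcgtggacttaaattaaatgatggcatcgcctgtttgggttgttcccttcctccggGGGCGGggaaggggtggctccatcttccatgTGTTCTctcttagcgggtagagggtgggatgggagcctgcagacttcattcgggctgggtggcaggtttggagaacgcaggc
Wfdc6a: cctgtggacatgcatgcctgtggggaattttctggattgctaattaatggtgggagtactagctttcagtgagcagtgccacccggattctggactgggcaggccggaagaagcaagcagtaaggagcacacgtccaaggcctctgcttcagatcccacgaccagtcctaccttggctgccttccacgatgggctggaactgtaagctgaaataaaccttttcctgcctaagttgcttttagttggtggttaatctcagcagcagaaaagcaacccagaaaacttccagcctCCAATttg
Arrdc2: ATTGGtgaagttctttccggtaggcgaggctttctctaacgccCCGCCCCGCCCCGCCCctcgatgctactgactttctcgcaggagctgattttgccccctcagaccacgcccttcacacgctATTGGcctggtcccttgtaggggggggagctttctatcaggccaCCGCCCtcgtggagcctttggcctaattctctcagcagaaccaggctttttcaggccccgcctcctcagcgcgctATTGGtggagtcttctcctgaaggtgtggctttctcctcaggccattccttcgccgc

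Cwh43 has 1 AGAACA match, at position -32 from the start site, and 1 GGGCGG match at -63. AGAACA occurs in 19% of the 32807 promoters of the RefSeq table. Arrdc2 has 3 CCAAT matches, at -250, -126 and -7, and 4 GGGCGG matches, of which those at -207, -202 and -197 overlap. Wfdc6a has 1 CCAAT match, at 43 in the promoter shown and at -228 in the promoter of its other start site, which overlaps the one shown. CCAAT occurs in 37.4% and GGGCGG in 35.6% of all promoters. The fuller core of the glucocorticoid response element, GNACA and TGTNC with 3 bases between them, is in none of these promoters and in 0.476% of all 32807, and a window of 300 bases without it says nothing about the receptor elsewhere.

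The genes lie on 5 chromosomes and differ in size. Zbtb16 (ENSMUSG00000066687) spans 181926 bases of chromosome 9 (48654297 to 48836222, minus strand), with 5283 exonic bases. Cwh43 (ENSMUSG00000029154) spans chromosome 5 from 73406075 to 73453435 on the plus strand, with 2915 exonic bases. Wfdc6a (ENSMUSG00000074595) covers chromosome 2 from 164579519 to 164585447 on the minus strand, with 867 exonic bases. AU015791 (ENSMUSG00000113535) covers chromosome 12 from 105513480 to 105515246 on the plus strand and has 2 exons with 1457 exonic bases. Arrdc2 (ENSMUSG00000002910) covers chromosome 8 from 70835129 to 70839720 on the minus strand, with 3232 exonic bases. The exons of these 5 genes overlap those of no other gene in the table.

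Zbtb16, the transcription factor, was at or near 0 without dexamethasone and present in every library with it. Its normalised read counts were 29, 29, 44 and 26 with myoglobin + dexamethasone, 1, 1, 0 and 0 with myoglobin, and 1, 0, 0 and 0 with vehicle. Every dexamethasone library was above all 8 others, and the myoglobin and vehicle libraries overlapped. The means were 32.0 ± 8.12 with myoglobin + dexamethasone, 0.50 ± 0.577 with myoglobin and 0.25 ± 0.50 with vehicle (SD, n = 4 each). In estimated reads this was 115 summed over the myoglobin + dexamethasone libraries, 2 over the myoglobin libraries and 1 over the vehicle libraries. The ratio after scaling was 69.1 over myoglobin (95% interval 18.7 to 578) and 142 over vehicle (25.0 to 5654), where the intervals cover counting error only. The gene was chosen by its values in these dexamethasone libraries, so neither interval is a test of the response. The fitted log2 fold change, taken on log2(value + 1), which understates the change of a gene this low, was 4.52 ± 0.40 (SE) over myoglobin and 4.77 ± 0.40 over vehicle. No fold is given for myoglobin over vehicle, since both groups were at the floor.

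Cwh43, the gene of GPI lipid remodelling in yeast, was lowest with myoglobin and highest with dexamethasone. Its normalised read counts were 64, 76, 68 and 46 with myoglobin + dexamethasone, 7, 8, 10 and 6 with myoglobin, and 26, 18, 27 and 31 with vehicle. The 3 groups did not overlap. The means were 63.5 ± 12.7 with myoglobin + dexamethasone, 7.75 ± 1.71 with myoglobin and 25.5 ± 5.45 with vehicle (SD, n = 4 each). Myoglobin + dexamethasone thus stood at 8.19 times the myoglobin mean and 2.49 times the vehicle mean, with log2 fold changes of 2.88 ± 0.22 and 1.29 ± 0.22 (SE).

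Wfdc6a, with the whey acidic protein domain, had the same order of means as Cwh43 at lower counts. Its normalised read counts were 15, 16, 15 and 11 with myoglobin + dexamethasone, 0, 1, 5 and 1 with myoglobin, and 5, 2, 7 and 3 with vehicle. All dexamethasone libraries were above all others, and the myoglobin and vehicle libraries overlapped. The means were 14.3 ± 2.22 with myoglobin + dexamethasone, 1.75 ± 2.22 with myoglobin and 4.25 ± 2.22 with vehicle (SD, n = 4 each). The log2 fold change of myoglobin + dexamethasone was 2.77 ± 0.47 over myoglobin and 1.63 ± 0.47 over vehicle (SE). These are small counts, and replicate 3 of the myoglobin group, at 5, lay within the vehicle range.

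AU015791, the non-coding RNA, was low with myoglobin and stood in the vehicle range when dexamethasone was added. Its normalised read counts were 135, 94, 150 and 141 with myoglobin + dexamethasone, 45, 41, 52 and 52 with myoglobin, and 111, 104, 116 and 124 with vehicle. The myoglobin libraries were below all others, and the myoglobin + dexamethasone libraries overlapped those with vehicle. The means were 130 ± 24.8 with myoglobin + dexamethasone, 47.5 ± 5.45 with myoglobin and 114 ± 8.42 with vehicle (SD, n = 4 each). The log2 fold change of myoglobin + dexamethasone was 1.42 ± 0.14 over myoglobin and 0.17 ± 0.14 over vehicle (SE).

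Arrdc2, the alpha-arrestin, was the only one of the 5 whose myoglobin libraries were all above the vehicle libraries. Its normalised read counts were 580, 518, 492 and 471 with myoglobin + dexamethasone, 409, 427, 331 and 345 with myoglobin, and 278, 263, 238 and 235 with vehicle. The 3 groups did not overlap. The means were 515 ± 47.3 with myoglobin + dexamethasone, 378 ± 47.1 with myoglobin and 253.5 ± 20.6 with vehicle (SD, n = 4 each). The log2 fold change of myoglobin + dexamethasone was 0.45 ± 0.087 over myoglobin and 1.02 ± 0.087 over vehicle (SE). The mean with both agents was 2.03 times the vehicle mean.

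**Figure D1:**
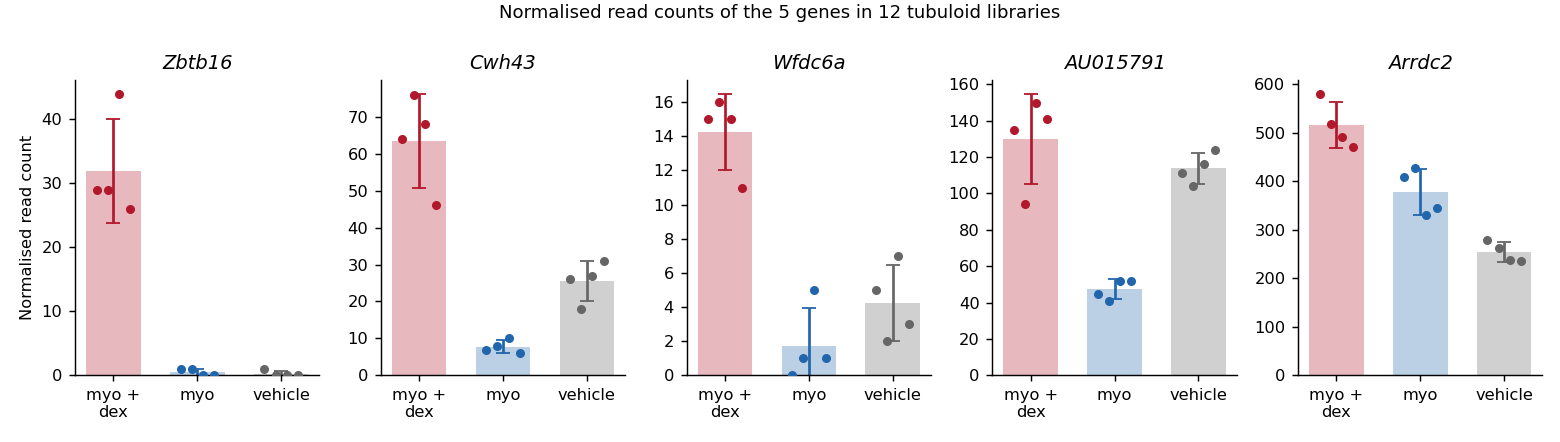
Normalised read counts (y axis, a separate linear scale for each gene) of the 5 genes with myoglobin + dexamethasone, myoglobin and vehicle; points are libraries, bars are means and error bars are SD over 4 libraries. Dexamethasone libraries of Zbtb16 lie between 26 and 44 and all others at 0 or 1, whereas AU015791 with myoglobin + dexamethasone (94 to 150) overlaps vehicle (104 to 124).

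Set over exonic length, the levels of the genes with myoglobin + dexamethasone ran from Arrdc2 at 159 ± 14.6 normalised read counts per kb, over AU015791 at 89.2 ± 17.0, Cwh43 at 21.8 ± 4.35 and Wfdc6a at 16.4 ± 2.56, to Zbtb16 at 6.06 ± 1.54 (SD, n = 4 each). The libraries of Cwh43 and Wfdc6a overlapped on this scale, and those of no other neighbours in the order did. With myoglobin alone the order was Arrdc2 (117 ± 14.6), AU015791 (32.6 ± 3.74), Cwh43 (2.66 ± 0.586), Wfdc6a (2.02 ± 2.56) and Zbtb16 (0.0946). Here Wfdc6a overlapped both Cwh43 and Zbtb16. With vehicle Arrdc2 (78.4 ± 6.37) and AU015791 (78.1 ± 5.78) overlapped, ahead of Cwh43 (8.75 ± 1.87) and Wfdc6a (4.90 ± 2.56), which also overlapped, and of Zbtb16 (0.0473). On this scale Zbtb16, the gene with the largest fold change, had the lowest mean of the 5 in every group. Before division by exonic length its mean with myoglobin + dexamethasone (32.0) was above that of Wfdc6a (14.3).

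All 5 genes were higher with myoglobin + dexamethasone than with myoglobin in every library, an order that 7.03% of all tested genes showed in that direction and that the choice of the genes fixes. Against vehicle 4 of the 5 were higher without overlap, with AU015791 the exception, where 15.3% of tested genes were. This comparison shares the dexamethasone libraries with the one that chose the genes, and nothing is read from either count. Replicate 4 of myoglobin + dexamethasone, the library with the fewest reads, was the lowest of its group for Zbtb16, Cwh43, Wfdc6a and Arrdc2. For AU015791 the lowest was replicate 2. Without replicate 4 the log2 fold changes over myoglobin were 4.60 for Zbtb16, 3.02 for Cwh43, 2.88 for Wfdc6a, 1.37 for AU015791 and 0.49 for Arrdc2, each within 0.2 of the value from all libraries.

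The word strongest fits some of these genes and not others. Among the 14558 tested genes ranked by fold change of myoglobin + dexamethasone over myoglobin, Zbtb16, Cwh43 and Wfdc6a held ranks 1, 2 and 3. AU015791 stood at rank 21, between Epx and Slc2a3 (1.42 and 1.40 on the log2 scale), and Arrdc2 at rank 340, between Nexmif and Stamos (0.45 each). Against vehicle the ranks were 1 for Zbtb16, 73 for Wfdc6a, 118 for Cwh43, 181 for Arrdc2 and 2547 for AU015791. Just after Wfdc6a over myoglobin came Abcb5, an ABC transporter, with a log2 fold change of 2.68 ± 0.27 and means of 94.3 ± 32.2 with myoglobin + dexamethasone, 13.5 ± 4.12 with myoglobin and 45.8 ± 8.30 with vehicle. The sulfotransferases Sult1d1 (means 322 ± 7.04 with myoglobin + dexamethasone, 65.8 ± 1.5 with myoglobin and 77.0 ± 8.83 with vehicle) and Sult5a1 (1.91 ± 0.29) also stood in the first 10, as did the sodium channel subunit gene Scnn1a (2.05 ± 0.097).

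Of the first 10 genes by fold change, 3 more are neither members nor of those families. They are the non-coding RNA Gm11827 (2.22 ± 0.51), the ubiquitin ligase gene Trim9 (2.18 ± 0.29) and the kinase gene Sgk1 (1.88 ± 0.19). Trim9 averaged 14.8 with myoglobin + dexamethasone, 2.50 with myoglobin and 13.5 with vehicle, and so lay at the vehicle level with both agents, as AU015791 did. Sgk1 averaged 259.5 with myoglobin + dexamethasone, 70.5 with myoglobin and 62.8 with vehicle, so its myoglobin and vehicle means were close together, as those of Zbtb16 were.

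**Figure D2:**
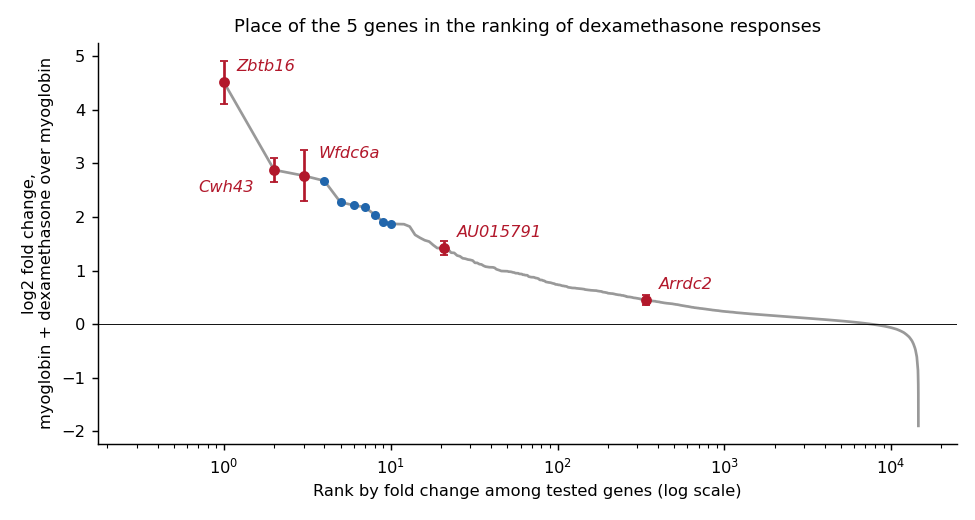
Log2 fold change of myoglobin + dexamethasone over myoglobin (y axis) against rank among 14558 tested genes (x axis, log scale); red points with SE bars are the 5 genes, blue points are the others of the first 10 (Abcb5, Sult1d1, Gm11827, Trim9, Scnn1a, Sult5a1 and Sgk1 in order) and the grey line joins all genes. Zbtb16, Cwh43 and Wfdc6a open the ranking, AU015791 is at rank 21 and Arrdc2 at rank 340 with a fold change of 0.45.

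The fold change of the low genes, and with it their rank, moved with the pseudocount. With a pseudocount of 0.1 the log2 fold change over myoglobin was 6.57 for Zbtb16 and 4.00 for Wfdc6a, and with 10 it was 1.98 and 1.06. Cwh43 was at 2.04 with a pseudocount of 10 and then ranked 3, ahead of Zbtb16 at rank 4, while Wfdc6a stood at rank 20 and AU015791 at 11. Arrdc2 ranked 373 with 0.1 and 170 with 10. The ranks also moved with the filter on low values. With no filter, over 20813 genes, Wfdc6a ranked 4, AU015791 ranked 39 and Arrdc2 ranked 1482, and with a filter at 30 in 4 libraries, over 12579 genes, Cwh43 ranked 1, AU015791 ranked 12 and Arrdc2 ranked 153. Leaving out any library kept Zbtb16 at rank 1, Cwh43 at 2 or 3, Wfdc6a at 2 to 5, AU015791 at 15 to 26 and Arrdc2 at 297 to 468.

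**Figure D3:**
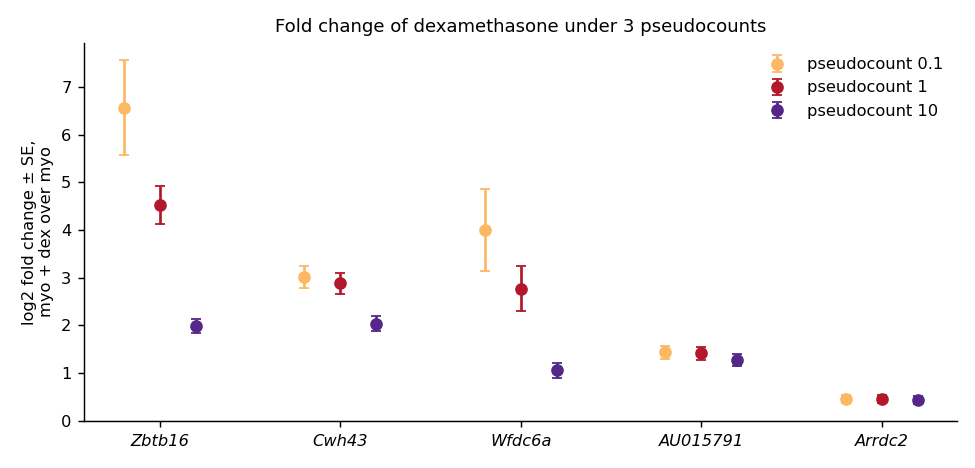
Log2 fold change ± SE of myoglobin + dexamethasone over myoglobin (y axis) for the 5 genes (x axis) with pseudocounts of 0.1, 1 and 10. Zbtb16 spans 6.57 to 1.98 and Wfdc6a 4.00 to 1.06, while AU015791 and Arrdc2 move little.

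The values with myoglobin alone are set beside vehicle as a description, with no test. The genes were chosen for being high with both agents relative to these same myoglobin libraries, and such a choice favours genes that are low with myoglobin. The myoglobin mean of Cwh43 was 30.4% of the vehicle mean, a log2 fold change of -1.59 ± 0.22 (SE). The myoglobin mean of AU015791 was 41.8% of the vehicle mean, a log2 fold change of -1.25 ± 0.14. These 2 genes were lower in all 4 myoglobin libraries than in any vehicle library, as 12.1% of tested genes were.

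The myoglobin mean of Arrdc2 was 149% of the vehicle mean, a log2 fold change of 0.57 ± 0.087 (SE), and its 4 myoglobin libraries were above all vehicle libraries, as 12.9% of tested genes were. The myoglobin mean of Wfdc6a was 41.2% of the vehicle mean, a log2 fold change of -1.15 ± 0.47, with overlapping libraries. It was -1.63 without myoglobin replicate 3, the library at 5. Wfdc6a was at 0 to 7 in all 8 libraries without dexamethasone.

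**Figure D4:**
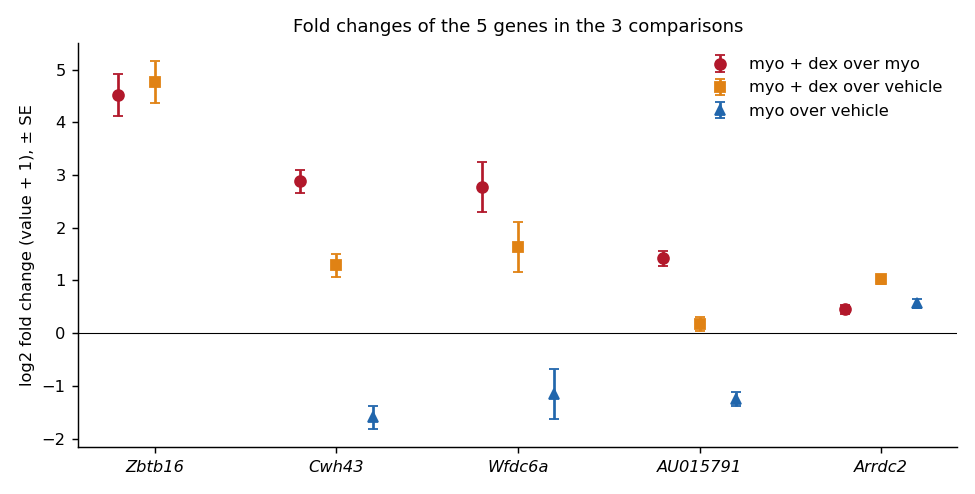
Log2 fold change ± SE (y axis) of the 5 genes (x axis) for myoglobin + dexamethasone over myoglobin (circles), myoglobin + dexamethasone over vehicle (squares) and myoglobin over vehicle (triangles, not drawn for Zbtb16, which was at the floor in both groups). Cwh43, Wfdc6a and AU015791 have myoglobin over vehicle values of -1.59, -1.15 and -1.25, and Arrdc2 has 0.57.

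Seen over the 3 groups, the genes show 4 patterns. Zbtb16 was at the floor in both groups without dexamethasone. Cwh43 and Wfdc6a had their lowest mean with myoglobin and were higher with myoglobin + dexamethasone than with vehicle. The myoglobin and vehicle libraries of Wfdc6a overlapped, at counts near the floor. AU015791 had its lowest values with myoglobin, and its myoglobin + dexamethasone mean was 1.14 times that with vehicle, with overlapping libraries. For Arrdc2 the mean was highest with myoglobin + dexamethasone, next with myoglobin and lowest with vehicle.

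The genes whose values ran most alike over the 12 libraries are given by Pearson r of the log2 values, as a description. For Zbtb16 they were the sulfotransferase gene Sult1a1 (r = 0.970; means 196 with myoglobin + dexamethasone, 92.0 with myoglobin and 72.3 with vehicle), the peroxisome gene Pex11a (0.969) and the melanosome transport gene Mlph (0.967). For Cwh43 they were the mTORC1 regulator gene Castor2 (r = 0.958; 584, 351 and 469 in the same order), the lactate dehydrogenase gene Ldhd (0.957; 540, 256 and 356.5) and the retinol dehydrogenase gene Rdh12 (0.952). For Wfdc6a they were Cwh43 itself (0.907), the clock repressor gene Bhlhe41 (0.903) and the microtubule end-binding gene Mapre3 (0.897).

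For AU015791 the most alike genes were the mitochondrial acetyl-CoA synthetase gene Acss1 (r = 0.930; means 264 with myoglobin + dexamethasone, 161 with myoglobin and 232.5 with vehicle), Snapin (0.922) and the telomere protein gene Terf2ip (0.914). For Arrdc2 they were the acid phosphatase gene Acpp (r = 0.978; 287.5, 221 and 167 in the same order), the cytokine signalling inhibitor gene Socs2 (0.974) and Hip1r (0.971). All points share the 12 libraries and fall into the 3 treatments, so such an r mostly states that a gene has the same order of group means.

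Other known glucocorticoid targets were read beside the 5 genes. Of 21 listed targets, all in the table and 20 tested, 10 rose and 0 fell with myoglobin + dexamethasone over myoglobin by limma, with 13 at an unadjusted p below 0.05. Over all tested genes 6.98% passed, 3.08% higher and 3.9% lower. The median log2 fold change of the list was 0.26, against 0.01 over all genes. Scnn1a had the smallest p (2.05 ± 0.097, adjusted p = 4.77e-09), then Fkbp5, a co-chaperone of the receptor (1.19 ± 0.073, 1.53e-07; means 554 with myoglobin + dexamethasone, 242.5 with myoglobin and 227 with vehicle), and the clock gene Per1 (0.71 ± 0.065, 1.17e-05).

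With myoglobin over vehicle 3 of these 20 targets rose and 4 fell by limma, where 18.3% of all tested genes passed, 8.71% higher and 9.62% lower. The count that fell was 1 or 2 without vehicle replicate 2, 3 or 4, without any 1 of the myoglobin replicates, or without myoglobin + dexamethasone replicate 1, 2 or 3. Cebpd (1.26 ± 0.072, adjusted p = 7.27e-09) and the NF-kB inhibitor gene Nfkbia (0.81 ± 0.062, 1.90e-07) rose and the insulin receptor substrate gene Irs2 fell (-0.50 ± 0.045, 1.07e-06). With myoglobin + dexamethasone over vehicle 10 rose and 1 fell, where 28.6% of all genes passed, 13.9% higher and 14.6% lower (2029 and 2132 genes, or 1590 and 2602 with upper-quartile scaling). Scnn1a (1.82 ± 0.097, adjusted p = 3.18e-09), Cebpd (1.29 ± 0.072, 5.16e-09) and Fkbp5 (1.28 ± 0.073, 5.85e-09) led.

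The arrestin relatives of Arrdc2 that were tested are the alpha-arrestin genes Arrdc1, Arrdc3, Arrdc4 and Txnip and the beta-arrestin genes Arrb1 and Arrb2. Of these 6, 2 rose and 0 fell with myoglobin + dexamethasone over myoglobin by limma, where 3.08% of all genes were called higher and 3.9% lower. With upper-quartile scaling 1 rose. Txnip, an alpha-arrestin that binds thioredoxin, averaged 854 ± 46.9 with myoglobin + dexamethasone, 696 ± 18.2 with myoglobin and 908.5 ± 4.73 with vehicle. It rose by 0.29 ± 0.041 over myoglobin (adjusted p = 4.83e-04) and fell with myoglobin over vehicle (-0.38 ± 0.041, 6.06e-06). Arrdc3 rose by 0.17 ± 0.048 (adjusted p = 0.0424, up to 0.109), a call kept only when vehicle replicate 1 or 4 or myoglobin + dexamethasone replicate 4 was the library left out. Over vehicle Arrdc3 was the 1 that rose (0.17 ± 0.048, 0.0157), where 13.9% of all genes were called higher. That call was lost without vehicle replicate 3 or 4 and with upper-quartile scaling, where the log2 fold change was 0.13.

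Of 7 tested NEDD4-type ligase genes, the partners of alpha-arrestins, 1 rose and 0 fell over myoglobin, where 6.98% of all genes were called. This was Wwp1, with means of 1421 with myoglobin + dexamethasone, 1253 with myoglobin and 1057 with vehicle, the same order as Arrdc2. Wwp1 rose by 0.18 ± 0.039 over myoglobin (limma adjusted p = 0.0117) and with myoglobin over vehicle (0.25 ± 0.039, 3.36e-04). Nedd4l fell with myoglobin over vehicle (-0.11 ± 0.036, limma adjusted p = 0.0488). Among the fits with 1 library left out, that call was kept only without myoglobin replicate 2 or myoglobin + dexamethasone replicate 4. With upper-quartile scaling it was kept (-0.13). With myoglobin + dexamethasone over vehicle Wwp1 (0.43 ± 0.039, 1.20e-06) and Nedd4 rose (0.27 ± 0.078, 0.0170), the call on Nedd4 being lost with quantile normalisation. Without myoglobin + dexamethasone replicate 4 the value for Nedd4 was 0.17.

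The list of Zbtb genes and close relatives has 43 tested entries, among them Zbtb8os and Zbtb11os1, which are named for lying opposite a Zbtb gene. Of the 43, 2 rose and 0 fell over myoglobin by limma, where 3.08% of all genes were called higher and 3.9% lower. They were Bcl6, a repressor of the same class that is also on the list of glucocorticoid targets (0.28 ± 0.058, adjusted p = 0.00912; means 321 with myoglobin + dexamethasone, 265.5 with myoglobin and 298 with vehicle), and Zbtb38 (0.18 ± 0.047, 0.0290). The call on Zbtb38 was lost without myoglobin replicate 2, 3 or 4 or myoglobin + dexamethasone replicate 1, and with upper-quartile scaling or quantile normalisation. With myoglobin over vehicle Zbtb18 rose (0.25 ± 0.041, adjusted p = 3.34e-04) and Zbtb4 (-0.28 ± 0.051, 9.28e-04) and Zbtb10 (-0.25 ± 0.061, 0.010) fell. The number that rose was 2, and 4 without myoglobin + dexamethasone replicate 4. Over all tested genes 8.71% were called higher and 9.62% lower with myoglobin over vehicle.

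With myoglobin + dexamethasone over vehicle Zbtb12 (0.24 ± 0.054, limma adjusted p = 0.00325) and Zbtb18 (0.21 ± 0.041, 0.00135) rose. Zbtb10 fell (-0.18 ± 0.061, adjusted p = 0.0398), a call lost without vehicle replicate 1 or 2, myoglobin replicate 2 or 3, or myoglobin + dexamethasone replicate 2 or 4. Of 8 corepressor and ligase genes that work with BTB proteins, 0 passed over myoglobin by limma, with 4 at an unadjusted p below 0.05, where 6.98% of all genes passed. Over vehicle with both agents 2 of the 8 rose and 2 fell, where 13.9% of all genes were called higher and 14.6% lower. Among those that rose was the ligase scaffold gene Cul3 (0.15 ± 0.048, limma adjusted p = 0.0246; 0.10 without myoglobin + dexamethasone replicate 4). The deacetylase gene Hdac4 fell in that comparison (-0.22 ± 0.070, 0.0315), a call lost without vehicle replicate 1, 2 or 3 or myoglobin + dexamethasone replicate 2, 3 or 4. The count that rose was 0 or 1 without vehicle replicate 2, 3 or 4 or myoglobin replicate 2 or 3.

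For the relatives of Wfdc6a, of 9 tested whey acidic protein and Kunitz inhibitor genes, out of 24 listed, 0 passed by limma, with 5 at an unadjusted p below 0.05 and a median log2 fold change of 0.16, where 6.98% of all genes passed. Without myoglobin + dexamethasone replicate 2, 1 rose. With myoglobin over vehicle Slpi, a secreted leukocyte protease inhibitor, rose (0.68 ± 0.093, adjusted p = 8.68e-05), with means of 159.5 with myoglobin + dexamethasone, 154 with myoglobin and 96.0 with vehicle. It was the 1 inhibitor gene that rose, where 8.71% of all tested genes were called higher. Without myoglobin + dexamethasone replicate 4 there were 2. With myoglobin + dexamethasone over vehicle Slpi (0.72 ± 0.093, 3.73e-05), the membrane protease inhibitor gene Spint2 (0.33 ± 0.085, 0.00878) and Wfdc2 (0.33 ± 0.10, 0.0235) rose. Over all tested genes 13.9% were called higher in that comparison. The call on Wfdc2 was lost without vehicle replicate 2. Without myoglobin + dexamethasone replicate 4 the values were 0.21 for Spint2 and 0.19 for Wfdc2.

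Of 31 tested genes of GPI anchor synthesis and remodelling, 0 passed over myoglobin by limma, with 2 at an unadjusted p below 0.05, where 6.98% of all genes passed. Without myoglobin + dexamethasone replicate 4, 1 of them rose, and without replicate 3 of that group 1 fell. With myoglobin over vehicle the mannosyltransferase gene Pigz rose (1.24 ± 0.18, adjusted p = 1.55e-04; means 65 with myoglobin + dexamethasone, 68.8 with myoglobin and 28.5 with vehicle). In the same comparison 3 fell, among them Mppe1 (-0.20 ± 0.047, 0.00765) and Tmem246 (-0.36 ± 0.10, 0.0257). Over all tested genes 8.71% were called higher and 9.62% lower in that comparison. The call on Tmem246 was lost without vehicle replicate 3 or myoglobin replicate 2, 3 or 4 and with quantile normalisation, and the count that fell was 1 without vehicle replicate 3 or myoglobin replicate 2 or 4. Without myoglobin + dexamethasone replicate 4, 2 genes rose in place of 1. Pigz was also the 1 that rose with both agents over vehicle (1.15 ± 0.18, 2.37e-04), where 13.9% of all genes were called higher. In that comparison 2 rose without vehicle replicate 1 or myoglobin + dexamethasone replicate 4.

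The genomic surroundings of the 5 genes were read in the same contrast. Within 250 kb of them lie 121 annotated genes, of which 73 are in the table and 53 were tested. With myoglobin + dexamethasone over myoglobin 3 of the 53 rose and 2 fell by limma, next to 6.98% over all genes, and the median log2 fold change was 0.05. Htr3a, a serotonin receptor channel gene 63.0 kb from Zbtb16 on the same strand, rose (0.74 ± 0.14, adjusted p = 0.00569). It averaged 143 with myoglobin + dexamethasone, 84.3 with myoglobin and 188 with vehicle, a lower mean with both agents than with vehicle. Ociad2, 65.05 kb from Cwh43 on the opposite strand, rose by 0.28 ± 0.046 (adjusted p = 0.00193), with means of 487, 402 and 511 in the same order.

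Both Htr3a (-1.15 ± 0.14, limma adjusted p = 3.28e-05) and Ociad2 (-0.35 ± 0.046, 6.29e-05) fell with myoglobin over vehicle. The vesicle GTPase gene Rab3a, 76.5 kb from Arrdc2, rose (0.34 ± 0.089, adjusted p = 0.0304), a call lost without myoglobin replicate 1 or 2 or myoglobin + dexamethasone replicate 1, 2 or 3 (up to 0.0917). Near AU015791 the adenylate kinase gene Ak7, 191 kb away, fell (-1.01 ± 0.25, 0.0257), with means of 14.0 with myoglobin + dexamethasone, 29.3 with myoglobin and 20.8 with vehicle. That call was lost without myoglobin replicate 1 or 2 or myoglobin + dexamethasone replicate 2. D430019H16Rik, 20.4 kb from AU015791, fell (-1.04 ± 0.28, 0.0346) at means of 6, 12.8 and 9.25, a call lost without any 1 of the myoglobin replicates or without myoglobin + dexamethasone replicate 2 or 4. Both of these neighbours of AU015791 had the opposite sign to it in this contrast.

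**Figure D5:**
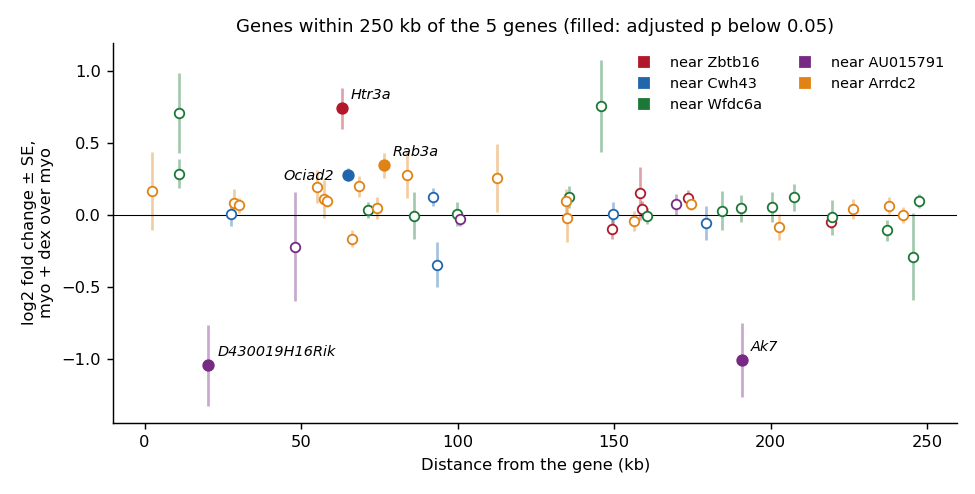
Log2 fold change ± SE of myoglobin + dexamethasone over myoglobin (y axis) of the 53 tested genes within 250 kb of the 5 genes against distance in kb (x axis); colours give the nearby gene and filled points passed at an adjusted p below 0.05. The 5 filled points are Htr3a, Ociad2 and Rab3a above 0 and D430019H16Rik and Ak7 below 0.

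Markers of other cells moved between the groups as follows, and their part in the results above was not tested. The 7 distal nephron markers in the table, of 8 listed, summed to 3698 to 4282 with myoglobin + dexamethasone, 3015 to 3355 with myoglobin and 3365 to 4097 with vehicle. Of these 7, with myoglobin over vehicle 1 rose and 5 fell by limma, where 8.71% of all tested genes were called higher and 9.62% lower. The 6 proximal tubule markers summed to 314 to 399, 383 to 470 and 252 to 291 in the same order of groups, most of it Lrp2. With myoglobin against vehicle the mean was higher for Lrp2 (387 and 233) and Slc5a2 (5.25 and 4.75). It was equal for Slc34a1 and lower for Aqp1 (6.5 and 12.75), Cubn (0.75 and 2.75) and Hnf4a (10.75 and 12). In the same order of groups the 6 fibroblast markers summed to 47 to 69, 69 to 124 and 74 to 126. The 5 endothelial markers summed to 6 to 15, 5 to 13 and 9 to 12. The 5 immune markers in the table, of 6 listed, summed to 489 to 537, 433 to 469 and 541 to 594, most of it Ptprc (means 423, 342 and 447), and the 5 podocyte markers to 612 to 723, 569 to 799 and 666 to 991. The immune and distal sums were lowest with myoglobin, but single markers differed. Of the immune markers only Ptprc had its lowest mean with myoglobin. Of the distal markers all but Calb1 (means 2106, 1698 and 1373 in the same order of groups) did. Hsd11b2 (7.25, 6.25 and 181.5) and Aqp2 (4.75, 4.25 and 30) stayed low with both agents. No marker in the table was at 0 in all 4 libraries of a group.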

How the data were processed

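Messenger RNA was sequenced from stranded libraries of 12 tubuloid cultures. Per the submitters' processing notes, the tools were featureCounts 2.0.3, STAR 2.7.10a, Trimmomatic 0.39, DESeq2 1.36.0 and Picard 2.27.4 and the build was mm10, but what each tool did is not given in the sources used here. The deposited values are whole numbers and were read as a score: the spacing of the authors' values shows reads divided by a library's size factor (0.568 to 1.11) and then rounded, so no count test was run. Coordinates are those of the table, which 20592 genes (98.9%) share with GENCODE M21, the source of exonic lengths.

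Here limma-trend (limma 3.58.1, R 4.3.3) was fitted to log2 of the value plus 1 in all 12 libraries with 3 group means, over the 14558 genes that reached 10 in 4 or more libraries. Two-sided p-values were Benjamini-Hochberg adjusted over these genes in each comparison, and "rose" or "fell" marks a gene past 0.05. The script was tested on simulated data. A value depends on the number of reads in its library, and intervals on reads cover counting error only. Further steps used pandas 2.3.3, matplotlib 3.10.9, scipy 1.17.1 and numpy 2.4.6 in Python 3.11.15.

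Named genes are the 5 genes, the first 10 by fold change of myoglobin + dexamethasone over myoglobin, the 3 genes most alike to each of the 5, up to 3 passing genes with the smallest p of each list and comparison, and neighbours within 250 kb that passed. A gene that this rule names is not reported here. The 5 genes carry no p-value, also with myoglobin over vehicle, because the choice of the genes used the myoglobin libraries. The 5 genes, the lists and the markers were chosen with earlier results of these data known. Alternatives were 2 other pseudocounts, 2 other filters, 2 scalings, each library left out, the replicate number as a block, and only the groups compared.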

Additional observations from a re-analysis of the deposited data

Results flagged for a closer look

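In the 15 combinations of the 5 genes and 3 groups, the gap between an extreme library and its nearest neighbour, set over the range of the group, was above Dixon's 95% critical value in 2, both of Zbtb16. With myoglobin + dexamethasone replicate 3 had a normalised read count of 44 and the other 3 libraries had 26 to 29. With vehicle replicate 1 had 1 and the other 3 had 0, a gap of 1 count. Chance flags about 1 in 20 groups of normally distributed values, a rate that does not hold for counts this near 0. A group with 1 library at 1 and the others at 0 is always flagged. The lowest Zbtb16 value with dexamethasone was 26 and the highest without it was 1. Leaving out the replicate at 44, the highest of its group, cannot change either value, so it is no check on the response.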

How the results depend on the processing

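The fold changes of the 5 genes and the counts of genes called are 17 results with 335 values under 20 alternatives. Of these, 322 were kept, 12 moved, 1 (Wfdc6a with myoglobin over vehicle) crossed a threshold that is not read here, and 0 reversed. Kept means a shift below the SD within groups for folds with dexamethasone, and a similar count for genes called. For myoglobin over vehicle it means direction and side of the threshold only, not size. There Wfdc6a was -2.14 or -0.283 with a pseudocount of 0.1 or 10, and Cwh43 was -0.99 with 10. A pseudocount of 0.1 or 10 gave Zbtb16 6.57 or 1.98 over myoglobin and 7.43 or 2.02 over vehicle, and Wfdc6a 4.00 or 1.06 over myoglobin. A pseudocount of 10 also gave Wfdc6a 0.78 over vehicle and Cwh43 2.04 over myoglobin. A pseudocount weighs on low values by its construction. A filter at 30 in 4 libraries left no value for Zbtb16 and Wfdc6a.

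With 1 library left out, the log2 fold changes with both agents ranged, over myoglobin and over vehicle, from 4.35 to 4.68 and 4.61 to 5.02 for Zbtb16, 2.78 to 3.02 and 1.13 to 1.43 for Cwh43, 2.39 to 3.25 and 1.39 to 1.86 for Wfdc6a, 1.34 to 1.57 and 0.10 to 0.32 for AU015791, and 0.39 to 0.51 and 0.96 to 1.07 for Arrdc2. Myoglobin over vehicle ranged from -1.75 to -1.49 for Cwh43, -1.63 (without myoglobin replicate 3) to -0.76 for Wfdc6a, -1.29 to -1.18 for AU015791 and 0.51 to 0.63 for Arrdc2.

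The 1016 genes called over myoglobin ranged from 551 to 1284 (551 without myoglobin replicate 4, 617 without replicate 2). With only the 2 groups compared in the fit, 639 were called. Such fits have fewer samples, and their counts moved in both directions. They called 3526 genes with myoglobin over vehicle, against 2669 in the main fit. With myoglobin + dexamethasone over vehicle they called 3417 genes, against 4161. Those called with myoglobin over vehicle (2669) ranged from 2056 to 3794, of which the higher genes (1268) were 1926 without myoglobin + dexamethasone replicate 4. Libraries with the same replicate number in different groups were correlated after the group mean of each gene was taken off the log2 values. The r of these deviations was between -0.0151 and 0.456 over 12 pairs, 9 above 0.1. Compared only with libraries of the other groups, 10 of 12 libraries correlated best with their own number. The labels do not say what a number stands for, so the main fit did not take the numbers as pairing. Its p-values leave out any effect shared by a number. With the replicate block 1788 genes were called over myoglobin, 749 higher and 1039 lower, against 448 and 568. For 43 results of other genes, 781 of 858 values kept direction and call, and 77 lost the call. The cause of these shifts was not tested. Reads per library limit Zbtb16 and Wfdc6a, whose groups without dexamethasone rest on 0 to 7 counts a library.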
